A study of Mus musculus with 2 samples.

Results

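The genes described here are 6 connexins of the mouse coronal suture, *Gja1*, *Gja4*, *Gja5*, *Gjb2*, *Gjb6* and *Gjc1*, followed across the cells of the dura and arachnoid mater and of the other tissues at the suture. They were found by symbol among the 27514 genes listed for both stages and are 6 of the 20 connexin genes listed there. The coronal suture is the fibrous joint between the frontal and parietal bones of the skull, and the meninges line its inner side. Single cells of wild-type C57/BL6 embryos were measured at 2 stages with droplet-based RNA sequencing that counts unique molecular identifiers (UMIs) at the 3′ end of each transcript. The E15.5 library came from 10 pooled sutures digested for 45 minutes with collagenase II at 3 mg/mL and dispase at 4 U/mL, followed by removal of dead cells with a kit. The E17.5 sample joined batches of 10, 3 and 3 sutures from 2 litters, digested for 30 minutes with collagenase IV at 2 mg/mL and sorted by flow cytometry. The 3 batches were prepared apart as a technical control and deposited together, kept apart by a barcode suffix; they are called the E17.5 library here. E15.5 has 1 library and thus no replicate, so no test between stages was made. The E15.5 file lists 31053 genes and the E17.5 file 27998, and the version of the counting program in the E15.5 header is another than the study's methods name. The effects of stage, digestion, sorting, litter and counting cannot be told apart.

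Connexins are membrane proteins that assemble into hemichannels, and hemichannels of neighbouring cells dock into gap junctions through which ions and small metabolites pass. *Gja1* encodes the connexin found most widely in connective tissue, bone and brain coverings. *Gjb2* and *Gjb6* encode the pair of connexins known from the cochlea and the skin, and from the leptomeninges and astrocytes. *Gja4* and *Gja5* encode connexins of arterial endothelium, and *Gjc1* encodes a connexin of smooth muscle and of the embryonic heart. In the arachnoid, the outer of the leptomeningeal membranes, gap junctions join the cells of a barrier layer that also carries tight junctions.

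The deposited table gave 15 cluster labels to 5335 cells at E15.5 with 48607817 UMIs (median 8510 per cell) and to 6830 cells at E17.5 with 92585034 UMIs (median 12302). Clusters MG1 to MG4 are meningeal. The study read MG1 and MG2 as a likely periosteal dura population and called MG4 arachnoid. It placed MG3 between these and proposed that MG3 may be the dural border cell layer. MG3 and MG4 are called the inner meninges here. OG1 to OG4 and the proliferative PO1 and PO2 are osteogenic, EC1 to EC4 lie on the outer side of the suture, and LIG resembles ligament. Levels are counts per 1000000 UMIs (CPM), the UMIs of a gene summed over the cells of a group and divided by all UMIs of that group. They carry an exact 95% Poisson interval, and shares of cells carry an exact (Clopper-Pearson) interval; both cover counting error only, not the spread between embryos or batches. The authors formed the clusters from the same cells with selected genes, and whether the connexins were among these is not stated. They used *Gjb6* as a marker of MG4 and located its transcripts in situ at E15.5. *Gja1* served them as a reference gene of the dura, and its protein was stained at E17.5 as a marker of arachnoid and dura. Levels by cluster are thus a description and no test of the clusters. Barcodes were rarely shared between the libraries (11 to 42 cell barcodes with each of the 3 barcode suffixes of E17.5) or between suffixes (8 to 20). At E15.5 all 5335 labelled cells held fewer UMIs than the authors' table lists for them, whereas all 6830 were equal at E17.5.

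The meningeal labels were set beside marker genes that are no connexins. The study read the layers from these same genes in these same cells, so their levels describe the labels and are no independent check. *Cldn11*, a tight junction gene of the arachnoid barrier, was highest of the meningeal clusters in MG4, at 479 CPM in the E15.5 library and 1120 CPM in the E17.5 library, and MG3 followed with 173 and 239 CPM. *Aldh1a2*, the retinoic acid synthesis enzyme of the leptomeninges, had 63.2 and 148 CPM in MG4 and at most 13.7 CPM in MG1 to MG3. The dura marker *Fxyd5* was highest in MG3, at 936 and 1440 CPM, and MG4 had 716 and 1185 CPM. Of the pia markers, *Lama1* reached at most 6.02, *Rdh10* 6.06 and *Ngfr* 11.5 CPM in the 4 meningeal clusters. *Cldn11* and *Aldh1a2* thus set MG4 apart from MG3, while *Fxyd5* was high in both. The remaining arachnoid marker *Tbx18* and dura marker *Crabp2* are given further below for MG4 alone, so nothing is said here on how they differ between MG3 and MG4.

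*Gjb2* and *Gjb6* are neighbours on chromosome 14 and were highest in the same cluster, so the sequence before the start of each is shown here beside that of *Gja1*, the connexin that MG3 and MG4 held most. *Gjb2* lies on the minus strand from 57098600 to 57104702 and *Gjb6* on the minus strand from 57123303 to 57133611 (GRCm38), 18600 bases apart, with the annotated gene Gm4491 between them. *Gja1* lies on the plus strand of chromosome 10 from 56377330 to 56402513. The 250 bases before the RefSeq start of each gene (RefSeq, build GRCm38.p6) are written in the direction of transcription, and capitals mark matches to a GC box (GGGCGG), an E-box (CANNTG) or an AP-1 motif (TGANTCA) on either strand.
Gjb2, chr14:57104703-57104952, minus strand: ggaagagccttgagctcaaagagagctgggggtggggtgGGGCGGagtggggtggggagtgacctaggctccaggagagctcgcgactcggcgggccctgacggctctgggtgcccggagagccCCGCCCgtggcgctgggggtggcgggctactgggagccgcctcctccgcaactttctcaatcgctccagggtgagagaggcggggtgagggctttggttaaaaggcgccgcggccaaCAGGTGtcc
Gjb6, chr14:57133612-57133861, minus strand: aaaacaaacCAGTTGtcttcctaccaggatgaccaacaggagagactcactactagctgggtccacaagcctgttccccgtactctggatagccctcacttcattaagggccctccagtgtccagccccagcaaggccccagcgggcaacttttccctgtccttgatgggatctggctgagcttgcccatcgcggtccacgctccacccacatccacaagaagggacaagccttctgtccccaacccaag
Gja1, chr10:56377050-56377299, plus strand: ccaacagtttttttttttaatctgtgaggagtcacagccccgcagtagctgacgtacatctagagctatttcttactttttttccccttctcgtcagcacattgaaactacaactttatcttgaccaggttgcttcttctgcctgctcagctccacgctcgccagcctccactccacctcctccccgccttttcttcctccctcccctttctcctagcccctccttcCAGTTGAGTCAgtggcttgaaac

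The promoters of *Gjb2* and *Gjb6* differed in base composition. That of *Gjb2* had a GC content of 69.2% with 18 CpG dinucleotides, and that of *Gjb6* had 56.8% with 5, where the median of 27025 mouse promoters of this length was 52.0% with 6. *Gjb2* held GC boxes starting 211 and 126 bases before the start, the latter on the opposite strand, and an E-box 9 bases before it. *Gjb6* held a single E-box, 241 bases before the start. The *Gja1* promoter, with 6 CpG, held an E-box at 23 and an AP-1 motif at 19 bases before the start, which share 2 bases. Of all promoters, 32.9% held a GC box, 66.0% an E-box and 6.87% an AP-1 motif. No TATA box (TATAAA, in 13.0% of all promoters) or CCAAT box (CCAAT, in 34.5%) was found in these 3 windows. The table held a promoter for 5 of the 6 connexins, and *Gjc1* was not among them. These matches describe letters and were not tested as binding sites.

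*Gja1* had its highest levels in the inner meninges at both stages. At E15.5 it had 1860 CPM (1758 to 1967) in the 64 cells of MG4 and 1523 CPM (1469 to 1578) in the 200 cells of MG3, and at E17.5 it had 1466 CPM (1412 to 1522) in the 202 cells of MG4 and 1486 CPM (1433 to 1540) in the 165 cells of MG3. MG4 was thus above MG3 at E15.5, with a ratio of 1.22 (1.14 to 1.31), while at E17.5 the intervals overlapped and the ratio was 0.987 (0.937 to 1.04). MG2 followed with 546 CPM (520 to 574) and 354 CPM (338 to 372). MG1 had 439 CPM (362 to 527) from 28 cells at E15.5 and 147 CPM (137 to 157) from 423 cells at E17.5. The other 11 clusters ranged from 49.4 CPM in EC2 to 258 CPM in OG4 at E15.5 and from 51.5 CPM in EC2 to 209 CPM in PO2 at E17.5, so at E17.5 MG1 was within the range of the non-meningeal clusters. MG3 and MG4 together exceeded all other labelled cells 11.8-fold (11.3 to 12.2) at E15.5 and 12.7-fold (12.3 to 13.1) at E17.5.

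**Figure D1:**
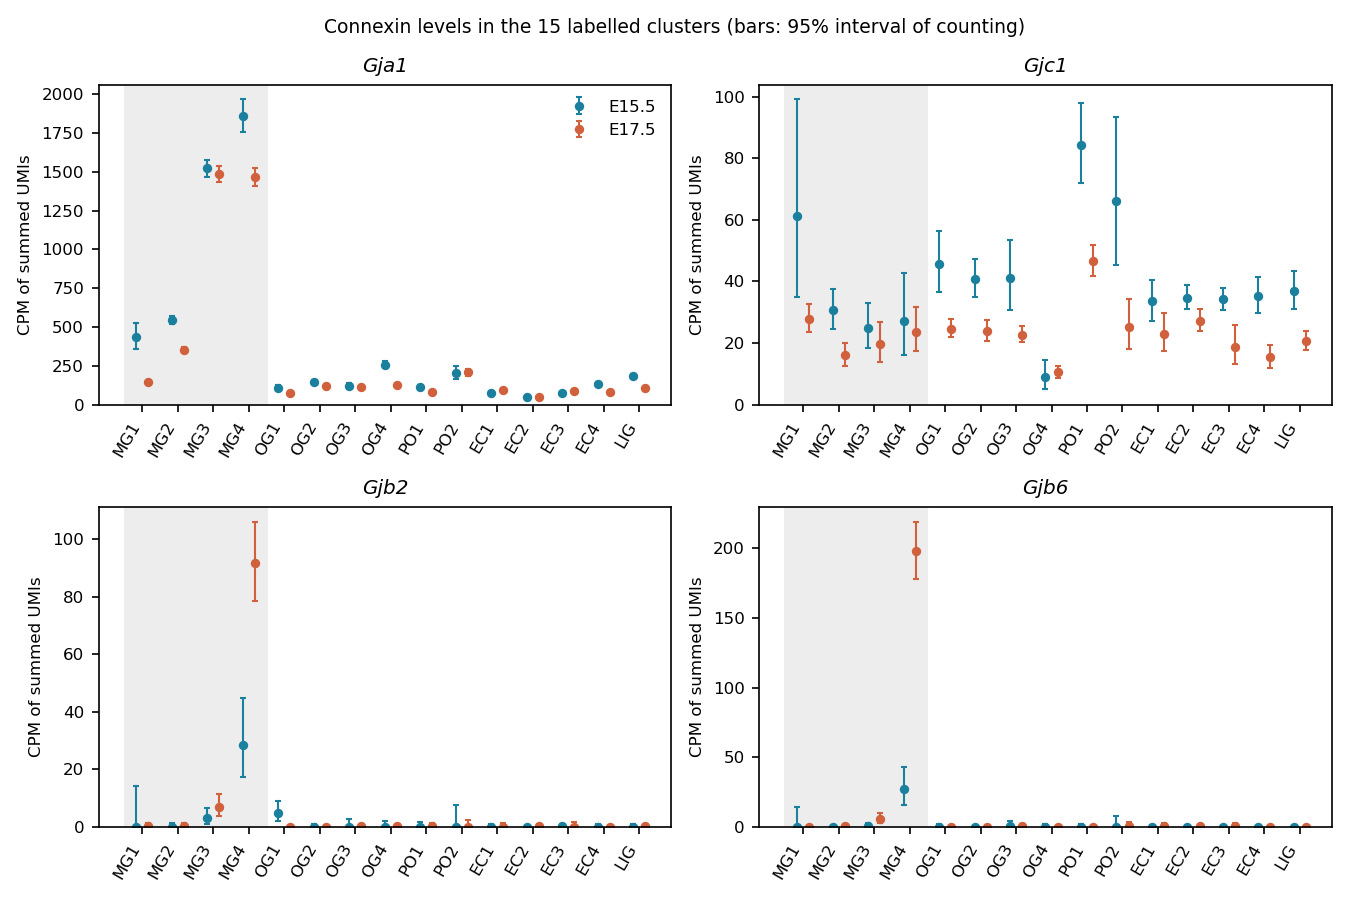
Levels of *Gja1*, *Gjc1*, *Gjb2* and *Gjb6* in CPM of summed UMIs (vertical axes, linear) in the 15 labelled clusters (horizontal axes) at E15.5 (blue) and E17.5 (orange); bars are 95% Poisson intervals and grey shading marks MG1 to MG4. *Gja1* stood high in MG3 and MG4, *Gjb2* and *Gjb6* in MG4, and *Gjc1* was present in all clusters with its highest level in PO1.

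Nearly every cell of the inner meninges held *Gja1*. All 200 MG3 cells and all 64 MG4 cells had at least 1 UMI of it at E15.5, as did all 165 MG3 cells and 201 of 202 MG4 cells at E17.5. The median cell held 14 UMIs in MG3 and 20 in MG4 at the earlier stage, and 17 and 13 UMIs at the later one. MG3 and MG4 held 40.2% (39.3 to 41.2) of the labelled *Gja1* UMIs at E15.5 and 36.0% (35.3 to 36.8) at E17.5, although they made up 4.95% and 5.37% of the labelled cells. The cells without a label were clustered here, and classes were named "-like" from marker genes. *Gja1* ranged over their classes and unnamed clusters from 0 CPM, in a cluster of 11 cells, to 245 CPM at E15.5 and from 16.4 to 137 CPM at E17.5. Unnamed clusters with the leptomeningeal genes *Aldh1a2* and *Ngfr* among their leading genes had 160 CPM (113 to 220, 33 cells) and 89.3 CPM (71.0 to 111, 92 cells). Myeloid-like cells had 63.5 and 40.8 CPM, with a UMI in 29.1% and 25.7% of cells.

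In the osteogenic lineage *Gja1*, which is known for coupling osteoblasts and osteocytes, was highest in OG4 at E15.5 with 258 CPM (235 to 282) and in PO2 at E17.5 with 209 CPM (188 to 233). OG4, the cluster with the highest level of the osteoblast channel gene *Panx3* (300 and 236 CPM), had 130 CPM (123 to 137) of *Gja1* at E17.5. OG1 to OG3 had 109 to 146 CPM at E15.5 and 75.8 to 119 CPM at E17.5.

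*Gjb6* was almost confined to MG4 among the labelled cells. It had 27.1 CPM (16.1 to 42.8) there at E15.5, where 9 of 64 cells held 18 UMIs, and 198 CPM (178 to 219) at E17.5, where 110 of 202 cells held 376 UMIs. MG4 held 85.7% (63.7 to 97.0) of the labelled *Gjb6* UMIs at E15.5 and 91.0% (87.9 to 93.6) at E17.5. In MG3 the level was 0.509 CPM from 1 UMI at E15.5 and 5.88 CPM (3.04 to 10.3) from 12 UMIs in 6 cells at E17.5. MG4 thus exceeded MG3 33.7-fold (19.0 to 65.7) at E17.5, and 53.3-fold (8.41 to 2219) at E15.5, where the interval is wide because MG3 had 1 UMI. Of the other 13 clusters, the highest level was 0.773 CPM in OG3 at E15.5, from 1 UMI, and 0.791 CPM in EC1 at E17.5, from 2 UMIs. Against all other labelled cells, MG4 was 433-fold higher (126 to 2294, against 3 UMIs) at E15.5 and 485-fold higher (346 to 700, against 37 UMIs) at E17.5.

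*Gjb2* had its highest level in MG4 as well, with 28.6 CPM (17.2 to 44.7) at E15.5, from 19 UMIs in 13 cells, and 91.6 CPM (78.5 to 106) at E17.5, from 174 UMIs in 73 cells. MG3 had 3.05 CPM of it in the E15.5 library (interval 1.12 to 6.64) and 6.86 CPM in the E17.5 library (3.75 to 11.5), so that MG4 exceeded MG3 9.37-fold (3.60 to 28.7) and 13.4-fold (7.75 to 24.9). MG1 and MG2 had 0 UMIs of *Gjb2* at E15.5 and 2 UMIs each at E17.5. Against all other labelled cells MG4 was 80.6-fold higher (39.7 to 165) at E15.5 and 260-fold higher (177 to 391) at E17.5.

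The 9 *Gjb2* UMIs of OG1 at E15.5 (4.68 CPM, 2.14 to 8.88) lay in cells that also carried epithelial genes. At that stage 30 of the 261 OG1 cells held at least 2 of the epithelial markers *Krt5*, *Krt14*, *Krt15* and *Epcam*, and all 9 *Gjb2* UMIs were in 8 of these 30 cells. The other 231 OG1 cells held 0 *Gjb2* UMIs, which allows up to 2.04 CPM. The 30 cells had 245 CPM of the collagen gene *Col1a1* and 8.76 CPM of the osteoblast regulator *Runx2*, against 2564 and 40.4 CPM in the other OG1 cells. Both *Gjb6* UMIs found outside MG3 and MG4 at E15.5 were also in cells with at least 2 epithelial markers. In all, 43 labelled cells met this criterion at E15.5 and 0 at E17.5. Without them the E15.5 ratio of MG4 to the other labelled cells was 170 (71.3 to 450) for *Gjb2* and 1292 (204 to 53828, against 1 UMI) for *Gjb6*, and the E17.5 ratios were as before; this criterion was chosen after the values had been seen.

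*Gjb2* was detected more often in MG4 cells that held *Gjb6* than in those that did not. At E17.5, 59 of the 110 MG4 cells with *Gjb6* also held *Gjb2* (53.6%, 43.9 to 63.2), against 14 of the 92 cells without it (15.2%, 8.58 to 24.2), at median depths of 8935 and 8848 UMIs. At E15.5 the numbers were 5 of 9 (55.6%, 21.2 to 86.3) and 8 of 55 (14.5%, 6.50 to 26.7), with overlapping intervals. With every cell thinned to 3000 UMIs, the E17.5 shares were 42.9% (31.1 to 55.3) and 10.6% (5.92 to 17.2). In level, *Gjb2* was 5.62-fold (3.55 to 9.33) higher in the E17.5 cells with *Gjb6* and 5.93-fold (2.13 to 16.2) higher in those of E15.5. Cells are not replicates, so no test was run on them.

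**Figure D2:**
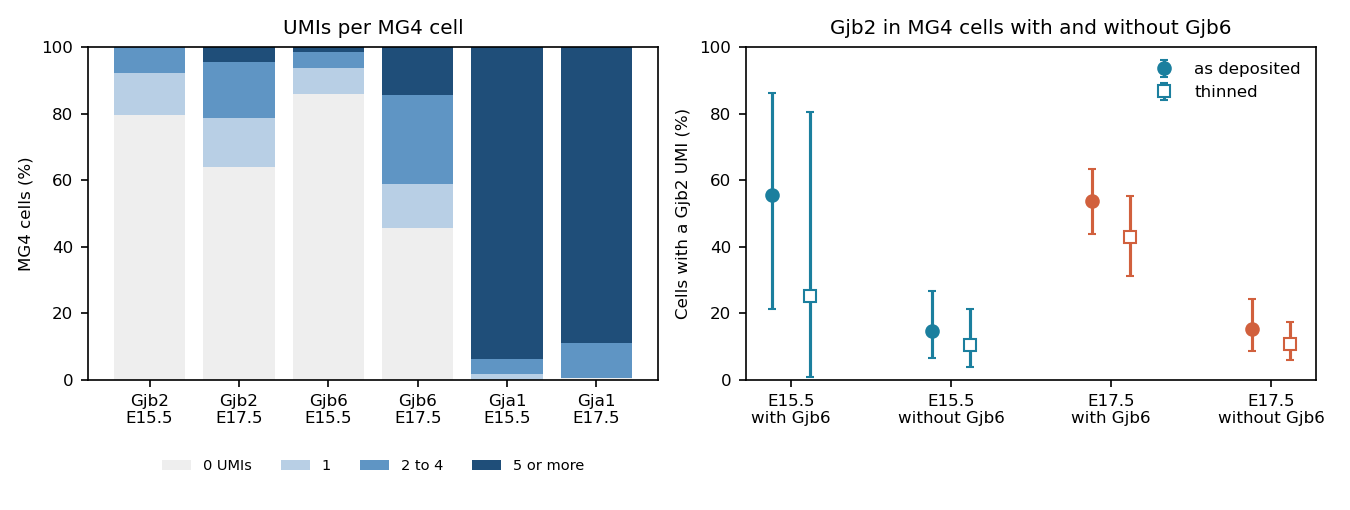
Left, percent of MG4 cells (vertical axis) that held 0, 1, 2 to 4, or 5 or more UMIs of *Gjb2*, *Gjb6* and *Gja1* at each stage; right, percent of MG4 cells with a *Gjb2* UMI among cells with and without *Gjb6*, as deposited (filled circles) and thinned to 3000 UMIs (open squares), with 95% Clopper-Pearson intervals. Most MG4 cells held 5 or more *Gja1* UMIs, and at E17.5 the interval for cells with *Gjb6* was above that for cells without it at both depths.

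The arachnoid marker *Cldn11* was also higher in MG4 cells with *Gjb6*, by 2.07-fold (1.58 to 2.69) at E15.5 and 1.60-fold (1.46 to 1.76) at E17.5. *Aldh1a2* was 3.29-fold (1.60 to 6.47) and 1.36-fold (1.06 to 1.75) higher. *Gja1* differed little, with ratios of 1.10 (0.934 to 1.29) and 1.12 (1.04 to 1.21), and the arachnoid marker *Tbx18* had ratios of 0.898 (0.313 to 2.12) and 0.997 (0.698 to 1.43). Of the dura markers, *Fxyd5* went opposite ways, at 0.588 (0.412 to 0.817) and 1.21 (1.11 to 1.32). *Crabp2* had ratios of 1.34 (0.967 to 1.82) and 1.47 (1.18 to 1.85).

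The make-up of the connexin UMIs of MG4 differed between the libraries. *Gja1* gave 95.6% (94.3 to 96.6) of the UMIs of all 20 connexins in MG4 at E15.5 and 82.2% (80.8 to 83.5) at E17.5. *Gjb6* went from 1.39% (0.827 to 2.19) to 11.1% (10.1 to 12.2) and *Gjb2* from 1.47% (0.887 to 2.29) to 5.13% (4.42 to 5.93). In MG3 the share of *Gja1* was 97.9% (97.3 to 98.4) and 97.5% (96.8 to 98.0). Over all labelled cells this share was 83.6% and 84.4%, and in OG4 it was 96.7% and 91.7%, so a large *Gja1* share was not particular to the meninges. In MG1, which had the lowest *Gja1* level of the meningeal clusters, *Gjc1* gave 12.2% (7.15 to 19.1) and 15.8% (13.5 to 18.2) of the connexin UMIs. This share was 5.30% and 4.32% in MG2 and 14.2% and 11.3% over all labelled cells. The 3′ assay counts transcripts and not bases, so these are shares of counted transcripts, without a correction for how well each gene is captured.

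**Figure D3:**
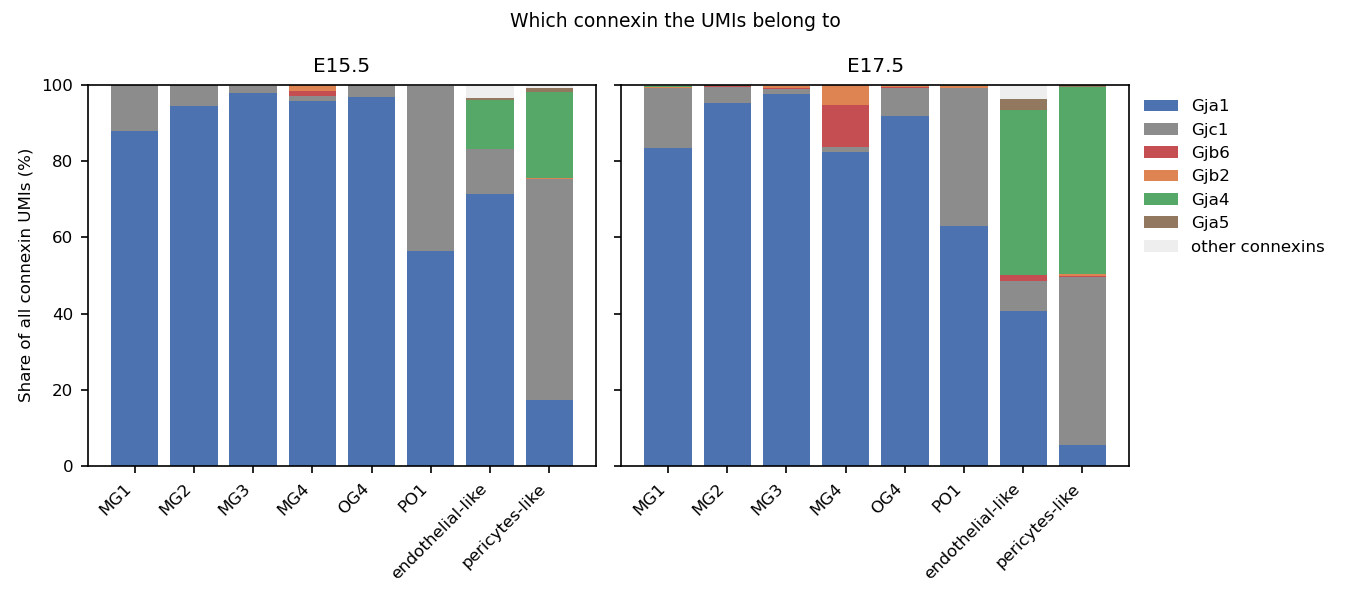
Share of the UMIs of all connexin genes (vertical axis, percent) that belonged to each member in MG1 to MG4, OG4, PO1 and the endothelial-like and pericytes-like cells at E15.5 (left) and E17.5 (right). *Gja1* took most of the UMIs in the meningeal clusters, *Gjb6* and *Gjb2* appeared in MG4, *Gjc1* in PO1, and *Gja4* and *Gjc1* in the vascular classes.

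Between the libraries, *Gjb6* in MG4 was 7.31-fold higher (4.56 to 12.5) and *Gjb2* 3.20-fold higher (1.99 to 5.45) at E17.5, whereas *Gja1* in MG4 was 0.788 times its E15.5 level (0.737 to 0.844). A *Gjb6* UMI was found in 14.1% (6.64 to 25.0) and 54.5% (47.3 to 61.5) of MG4 cells, and with each cell thinned to 3000 UMIs in 6.45% (1.79 to 15.7) and 33.2% (26.7 to 40.1). Of the myeloid-like cells, 0 of 395 and 1 of 557 held it, at median depths of 8803 and 9206 UMIs against 9400 and 8905 in MG4. The endothelial-like cells held 0 *Gjb6* UMIs at E15.5 and 8 at E17.5 (5.14 CPM, beside 5.88 CPM in MG3). The pericytes-like cells held 0 and 2 *Gjb6* UMIs (0.885 CPM at E17.5). Labelled cells outside MG3 and MG4 held 2 UMIs in 2 cells at E15.5 and 25 UMIs in 24 cells at E17.5. All 3 barcode suffixes of the E17.5 library were above E15.5 for *Gjb6*, with 155, 185 and 215 CPM. The same held for *Gjb2*, with 64.5, 95.4 and 90.0 CPM. However, suffix 1 had 7 MG4 cells, and 2 of them held each gene. Its *Gjb2* interval (21.0 to 151) overlapped that of E15.5. In MG3 *Gjb6* was 11.6-fold higher (1.71 to 494, from 1 UMI at E15.5) and *Gjb2* 2.25-fold (0.812 to 7.14), an interval that includes 1. Of the 14 *Gjb2* UMIs of MG3 at E17.5, 10 came from suffix 2 (20.3 CPM), and suffixes 1 and 3 had 1.73 and 3.09 CPM. *Gja1* in MG3 had a ratio of 0.976 (0.927 to 1.03). Of the arachnoid markers in MG4, *Cldn11* (479 and 1120 CPM) and *Aldh1a2* (63.2 and 148 CPM) were also higher at E17.5 and *Tbx18* was not (75.2 and 70.0 CPM). Of the dura markers, *Fxyd5* was higher (716 and 1185 CPM) and *Crabp2* lower (445 and 187 CPM). Their part in the connexin ratios was not tested.

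In the 4 meningeal clusters these ratios were set beside all genes of the same cluster, for MG1 and MG2 after their values had been seen. Among 10377 genes with at least 10 UMIs in MG4 over both libraries, 17.2% were at least 2-fold higher at E17.5 and 7.77% at least 2-fold lower; *Gjb2* and *Gjb6* were among the former and no connexin described here among the latter. In MG3, 8.81% of 10853 genes were higher and 6.51% lower, and again *Gjb2* and *Gjb6* were in the first set and none in the second. In MG3 *Gjb6* and *Gjb2* passed the minimum of 10 UMIs through their 12 and 14 UMIs at E17.5. At E15.5 they had 1 and 6 UMIs, so nothing is read from these calls. With suffix 1, 2 or 3 alone 0, 1 and 0 connexins were higher in MG3. In MG1 21.1% of 11380 genes were higher and 11.9% lower, and both connexins that could be tested, *Gja1* and *Gjc1*, were lower. In MG2 8.99% of 11905 genes were higher and 6.40% lower, with neither *Gja1* nor *Gjc1* among them. The median log2 ratio of all tested genes was -0.08 in MG1, 0.08 in MG2, 0.06 in MG3 and 0.15 in MG4.

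Relative to E15.5, *Gja1* had its lowest E17.5 level in MG1, with a ratio of 0.334 (0.275 to 0.410) that rests on 115 UMIs in 28 cells at E15.5. It was lower in 8 further clusters whose interval excludes 1, among them OG4 (0.504, 0.454 to 0.561), LIG (0.568, 0.515 to 0.625), EC4 (0.602, 0.526 to 0.689) and MG2 (0.649, 0.606 to 0.695). In EC1 it was higher, at 1.21 (1.01 to 1.45), and in MG3, OG3, PO2, EC2 and EC3 the interval includes 1. Shares of all tested genes were set beside these ratios after the values had been seen. At least 1.5-fold lower at E17.5 were 18.2% in OG4, 21.5% in LIG, 19.8% in EC4 and 13.8% in MG2. MG1 held cells of suffixes 2 and 3 alone at E17.5, with 153 and 142 CPM, and the suffixes of MG2 gave 414, 301 and 358 CPM.

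*Gjc1*, on the minus strand of chromosome 11 from 102799579 to 102819700, was present in all labelled clusters at low level and was not enriched in the meninges. The ratio of MG1 to MG4 together over all remaining labelled cells was 0.789 (0.671 to 0.923) in the E15.5 library and 0.942 (0.833 to 1.06) in the E17.5 library. MG1 had 61.1 CPM (34.9 to 99.2) and 27.8 CPM (23.6 to 32.6), the highest meningeal level in each library; its interval overlapped those of MG2 and MG4 at E15.5 and those of MG3 and MG4 at E17.5. PO1, a proliferative osteogenic cluster, had 84.2 CPM (72.1 to 97.8) and 46.5 CPM (41.7 to 51.7), 2.44-fold (2.07 to 2.85) and 2.18-fold (1.94 to 2.45) above the other labelled cells. PO2, also proliferative, had 66.1 and 25.3 CPM, with ratios of 1.82 (1.24 to 2.58) and 1.09 (0.779 to 1.48). Its interval overlapped that of PO1 at E15.5 and not at E17.5. OG4 was lowest in both libraries, with 8.84 CPM (5.05 to 14.4) and 10.6 CPM (8.70 to 12.7).

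Most clusters had less *Gjc1* at E17.5, with ratios from 0.383 in PO2 to 0.788 in EC2 in the 12 clusters whose interval excludes 1. Of all tested genes, 12.2% were at least 2-fold lower in PO2. Over these 12 clusters, the share of all tested genes at least 1.5-fold lower ran from 13.8% in MG2 to 26.3% in OG2, with 22.9% in PO1. *Gjc1* was lower by that size in each of them except EC1 and EC2. OG4 had a ratio of 1.20 (0.705 to 2.17), MG3 of 0.786 (0.505 to 1.22) and MG4 of 0.875 (0.496 to 1.61), all with 1 in the interval. In the pericytes-like cells the ratio was 0.943 (0.802 to 1.11).

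**Figure D4:**
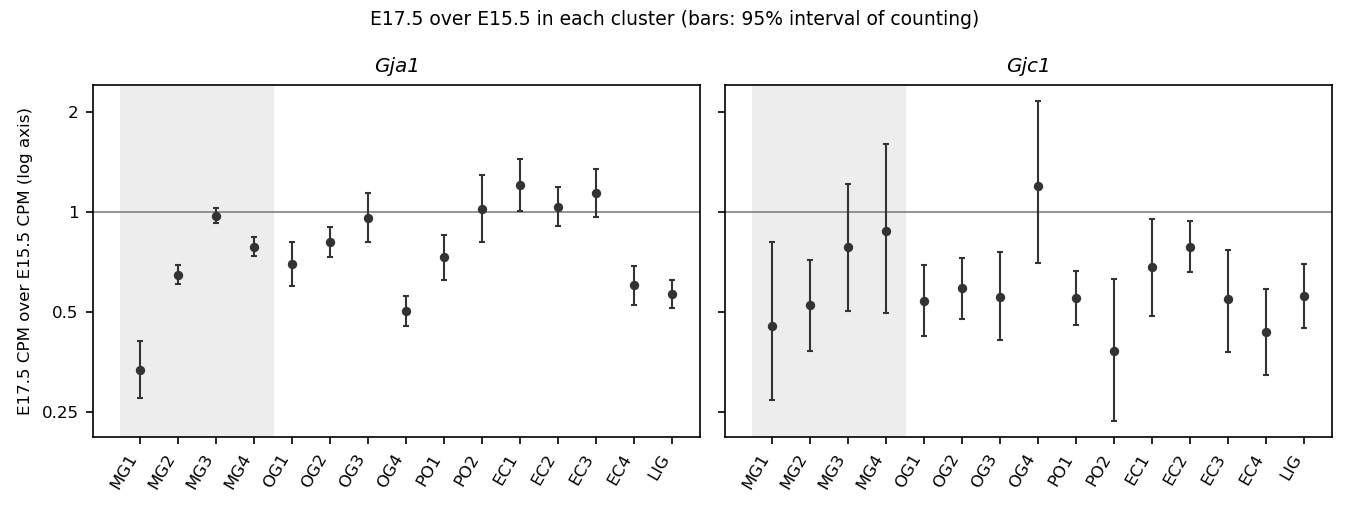
Ratio of the E17.5 to the E15.5 level in CPM (vertical axis, log scale) of *Gja1* (left) and *Gjc1* (right) in the 15 labelled clusters (horizontal axis), with 95% intervals; the line marks a ratio of 1 and grey shading MG1 to MG4. *Gja1* in MG3 lies close to the line and *Gja1* in MG1 farthest below it, and 12 of 15 *Gjc1* intervals lie below the line.

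*Gja4* and *Gja5* belonged to the vascular cells, which the deposited labels do not cover. Among the unlabelled cells the marker lists gave 47 and 119 endothelial-like cells (*Pecam1* at 425 and 613 CPM) and 191 and 174 pericytes-like cells (*Rgs5* at 646 and 2335 CPM). The E15.5 endothelial-like cluster was led by *Ccl21a*, a chemokine gene of lymphatic endothelium, and *Cldn5*, and the clusters of E17.5 by *Gpihbp1* and *Vwf*, so different genes led the class at each stage. *Gja4*, on the minus strand of chromosome 4 from 127311421 to 127314039, had 40.4 CPM (25.3 to 61.2) in the endothelial-like and 54.0 CPM (44.9 to 64.5) in the pericytes-like cells at E15.5, and 146 CPM (127 to 166) and 146 CPM (130 to 162) at E17.5. The labelled cells had 0.144 CPM from 7 UMIs and 0.594 CPM from 55 UMIs, each in a different cell, and 2 of 557 myeloid-like cells held a UMI at E17.5. Both vascular classes together exceeded them 357-fold (169 to 903) and 245-fold (186 to 330).

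Between the libraries *Gja4* was 3.60-fold higher (2.32 to 5.86) in the endothelial-like and 2.70-fold higher (2.18 to 3.35) in the pericytes-like cells at E17.5. The endothelial-like level rested on few cells, since 4 of 47 cells held its 22 UMIs at E15.5 and 30 of 119 its 227 UMIs at E17.5, up to 63 in a single cell. In the pericytes-like class 44 of 191 and 100 of 174 cells held a UMI.

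*Gja5*, on the plus strand of chromosome 3 from 96904693 to 97077416, was found in few cells, and its interval overlaps *Gpr89* on the other strand. It had 16 UMIs in 6 of 119 endothelial-like cells at E17.5 (10.3 CPM, 5.87 to 16.7) and 1 UMI in 47 cells at E15.5. The pericytes-like cells held 5 and 4 UMIs. The labelled cells held 0 UMIs at E15.5, which allows up to 0.0759 CPM, and 5 at E17.5, so the endothelial-like level at E17.5 was 190-fold higher (66.6 to 664).

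**Figure D5:**
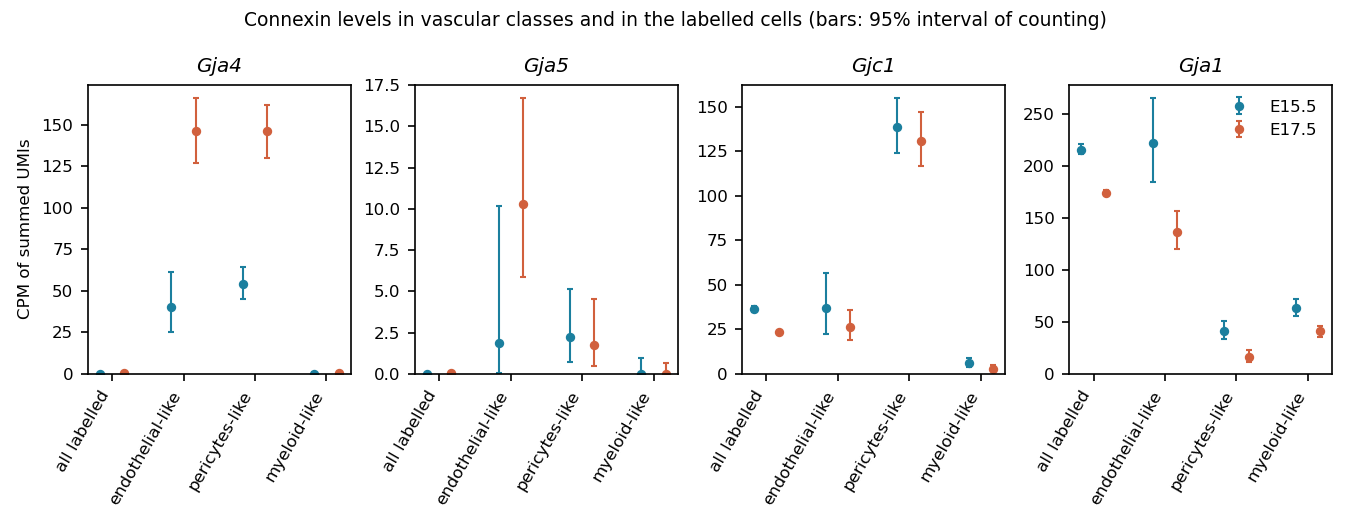
Levels of *Gja4*, *Gja5*, *Gjc1* and *Gja1* in CPM of summed UMIs (vertical axes, with separate scales) in all labelled cells and in the endothelial-like, pericytes-like and myeloid-like cells at E15.5 (blue) and E17.5 (orange), with 95% Poisson intervals. *Gja4* was near 0 in labelled and myeloid-like cells, *Gjc1* highest in pericytes-like cells and *Gja1* lowest there.

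Within the endothelial-like cells of E17.5, all 16 *Gja5* UMIs were in cells that also held *Gja4*. The arterial genes *Hey1*, a Notch target, and *Sox17*, a transcription factor, were 8.38-fold (3.19 to 25.8) and 2.69-fold (2.03 to 3.56) higher in the 30 cells with *Gja4* than in the other 89. *Efnb2*, an ephrin of arteries, was 1.76-fold (1.01 to 3.02) higher. *Bmx*, the remaining arterial marker, had a ratio of 1.40 (0.126 to 9.74). The pan-endothelial *Pecam1* was 1.54-fold (1.35 to 1.77) higher as well, while the junction gene *Cdh5* had a ratio of 1.02 (0.899 to 1.16). The 30 cells were the deeper ones, with a median of 12484 against 9867 UMIs. At E15.5, where 4 cells held *Gja4* at a median of 22207 UMIs against 5572 in the other 43, the ratio was 7.95 (1.71 to 40.0) for *Hey1* and 1.45 (0.582 to 3.19) for *Sox17*. In the pericytes-like cells, those with *Gja4* had 2.63-fold (2.09 to 3.30) and 1.76-fold (1.35 to 2.30) more *Gjc1* in the E15.5 and the E17.5 library, and less *Gja1*, at 0.164 (0.0585 to 0.371) and 0.352 (0.165 to 0.720) times the level of the others. The pericyte markers themselves were higher in these cells, *Rgs5* 4.74-fold (4.25 to 5.29) and 2.69-fold (2.51 to 2.88) and *Kcnj8* 2.51-fold (2.11 to 3.00) and 1.30-fold (1.16 to 1.45). An *Rgs5* UMI was found in 90.9% of the cells with *Gja4* and 32.7% of the others at E15.5, and in 99.0% and 79.7% at E17.5. Median depths were 12360 against 9541 and 12146 against 11380 UMIs, and the part of markers and depth in the connexin ratios was not tested.

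*Gjc1* reached its highest level of all named classes in the pericytes-like cells, with 139 CPM (124 to 155) and 131 CPM (117 to 147), against 36.8 and 26.3 CPM in the endothelial-like cells. *Gja1* went the other way, with 41.6 and 16.4 CPM in the pericytes-like cells and 222 and 137 CPM in the endothelial-like cells. Hence *Gja4* and *Gjc1* gave 49.0% and 44.1% of the connexin UMIs of the pericytes-like cells at E17.5, and *Gja1* 5.51%. Myeloid-like cells had 6.08 and 3.00 CPM of *Gjc1*.

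A connexin was called in a cluster when it was at least 2-fold above the other labelled cells in both libraries, among 14355 genes with at least 10 UMIs in each library. Of the 6 connexins 4 could be tested, since *Gja4* had 7 UMIs and *Gja5* 0 UMIs in the labelled cells at E15.5. In MG4, *Gja1*, *Gjb2* and *Gjb6* were called, against 4.16% of all tested genes. *Gjb6* passed the minimum at E15.5 through MG4 itself, which held 18 of its 21 UMIs, so nothing is read from its call. *Gjb2* had 17 UMIs outside MG4 at E15.5, 9 of them in OG1 cells with epithelial markers, so its call rests on few others. *Gja1* and *Gjb2* were called in MG3 (4.33% of all genes), *Gja1* in MG2 (2.95%) and *Gjc1* in PO1 (3.96%). In MG3 *Gjb2* had 6 of its 36 labelled UMIs at E15.5, when MG4 held 19 of them. At E17.5 MG3 had 14, of which 10 were from suffix 2, so nothing is read from this call. None of the 4 was called in MG1 (1.63%) or in the other 10 clusters. Since the clusters were formed from these same cells, the counts are a description.

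The other 14 connexins were low in the labelled cells. *Gjb5* had the most UMIs, 157 at E15.5 and 93 at E17.5, with at most 7.33 CPM in EC4 and 7.11 CPM in EC3. Of the pannexins, which form related channels, *Panx1* had 15.2 and 16.4 CPM over all labelled cells. Of the connexin partners, *Tjp1*, a scaffold of tight junctions that binds *Gja1* protein, had 22.9 CPM in MG3 and 45.1 CPM in MG4 at E15.5, where MG4 was the highest cluster. At E17.5 it had 13.7 and 21.1 CPM there and was highest in OG3, at 32.1 CPM. *Dbn1*, which links connexins to actin, was highest in EC2, at 219 and 320 CPM, and *Cnst*, which carries connexins to the membrane, had 4.03 and 4.43 CPM over all labelled cells.

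The genes most like each connexin were ranked by the lower of the libraries' Pearson r of log2(CPM + 1) over the 15 labels, a description across clusters that share their libraries. For *Gja1* they were the amino acid transporter *Slc38a2* (r of 0.97 and 0.95), *Fxyd5*, *Slc16a1*, *Itih2* and *Slc16a9*. For *Gjb6* they were *Slc6a13* (0.91 and 0.95), a transporter of GABA and taurine, *Vtn*, *Lsr* and *Slc4a10*, and for *Gjb2* they were *Lsr* (0.87 and 0.93), *Vtn*, *Cebpzos* and *Ktn1*. *Gjb2* and *Gjb6* had r of 0.84 and 0.98 with each other. For *Gjc1* they were *Ipo9* (0.86 and 0.89), *Pole*, *Syce2*, *Sumo2* and *Cdk2*. Over 21 groups that include the vascular and immune classes, *Gja4* was closest to *Pcdh1* (0.97 and 0.97), *Esam*, *Tcf15*, *Nrarp* and *Mcam*, and *Gja5* to *Tcf15* (0.96 and 0.94), *Esam*, *Gja4*, *Pcdh1* and *Nrarp*. Each profile rests on the clusters in which the gene was high, and *Gja5* on very few UMIs.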

How the data were processed

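Gene counts of single cells from coronal sutures, deposited as 1 sample per stage (E15.5, E17.5), were used as given. Per the labels, the authors made the UMI counts with Cell Ranger on mm10, and the E15.5 file header names version 3.1.0; FastQC 0.11.7, MultiQC 0.9 and Seurat 3.2.0 are also listed. Cluster labels came from the authors' table. The 3 barcode suffixes of E17.5 could not be tied to the batches. The members and lists were chosen with earlier results of these data known.

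UMIs were summed per cluster and library, and CPM was given with exact Poisson intervals (95%). Ratios carry exact conditional intervals. A call needed at least 2-fold and at least 10 UMIs. Unlabelled cells were clustered if they passed minimums of 1000 UMIs and 1000 genes and maximums of 7.5% mitochondrial and 3% haemoglobin UMIs (scanpy 1.11.5, igraph 0.11.9; 2000 variable genes, 30 principal components, 30 neighbours, Leiden resolution 1) and named "-like" where at least 3 preset markers were raised. Scrublet marked 415 of 8210 cells as doublets in the E15.5 library and 9 of 1530, 28 of 3602 and 4 of 3635 in the E17.5 suffixes; cells were removed in an alternative alone, by the highest scores. Thinning kept 3000 UMIs per cell. For each connexin, the 5 genes with the highest lower r were named, among genes with at least 50 UMIs in the labelled cells of each library. Some genes of these lists are not reported here. Statistics used numpy 2.4.6, scipy 1.17.1 and pandas 2.3.3 and were tested on simulated data. Gene positions are from GENCODE on GRCm38.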

Additional observations from a re-analysis of the deposited data

Results flagged for a closer look

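Some connexin levels lay on opposite sides of the comparison in the libraries; none of these differences was tested, since E15.5 has 1 library. *Gja1* in MG1 was 2.04 times the remaining labelled cells in the E15.5 library and 0.834 times in the E17.5 library, and in OG4 the ratios were 1.20 and 0.722. *Gjb2* in OG1 had ratios of 8.09 and 0.0329, the latter where OG1 held 1 UMI; all 9 OG1 UMIs of E15.5 lay in 8 of the 30 OG1 cells with epithelial markers, and the other 231 held 0. The E17.5 to E15.5 ratio of *Gja1* was 1.21 in EC1 and 0.334 in MG1, and that of *Gjb2* was 3.20 in MG4 and 0.0179 in OG1.

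Barcodes that have no label and lie outside the limits on cells also held connexin UMIs, above the limit that a count of 0 allows. The 7174 such barcodes of E15.5 held 2541 UMIs of *Gja1*, 405 of *Gjc1*, 25 of *Gja4* and 11 of *Gjb2*. The 559 such barcodes of E17.5 held 493 of *Gja1*, 64 of *Gjc1*, 54 of *Gja4*, 4 of *Gjb2* and 4 of *Gjb6*.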

How the results depend on the processing

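Of 176 recomputed values, 145 stayed within the counting interval, or within 1.5 times for counts of connexins, 31 moved and 0 reversed. The causes were not tested. Ratios alone could be marked as reversed, and counts of connexins and shares of cells could not. At E17.5, 0 labelled cells lay outside the limits on cells and 0 met the epithelial criterion. Leaving such cells out thus could not change the E17.5 values. With the other meningeal clusters as comparator, the ratio of MG4 was 24.8 at E15.5 and 63.0 at E17.5 for *Gjb2* and 163 for *Gjb6* at E17.5, and that of *Gja1* in MG3 and MG4 was 2.99 and 6.05. By E17.5 suffix 1, 2 and 3, the *Gjb6* ratio was 801, 750 and 333; suffixes 1 and 2 gave 1001 and 174 for *Gjb2*, and suffixes 2 and 3 gave 13.5 and 12.1 for *Gja1*. Suffix 1 alone gave 0.754 for *Gjc1* in MG1 to MG4 and 0.937 for *Gja1* in MG4 between the libraries. Thinned cells gave 12.2 for *Gja1* in MG3 and MG4 at E17.5, 0.728 for *Gja1* in MG4 between the libraries, 42.9% for joint detection, and 913 (against 1 UMI) and 378 for *Gja4* at E15.5 and E17.5. Without the cells of highest doublet scores, *Gja1* in MG3 and MG4 had 12.6 at E15.5, and its MG4 ratio between the libraries was 0.722. Without cells holding epithelial markers, an alternative chosen after seeing the data, the E15.5 *Gjb2* ratio was 170.

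At 3-fold, 0 connexins were called in MG2 and 0 in PO1; with at least 50 UMIs, 1 was called in MG3 and 1 in MG4. The number of connexins called higher in MG3 at E17.5 was 1 at 3-fold, and 0, 1 and 0 with suffix 1, 2 or 3 alone; suffix 1 gave 1 lower in MG4. *Gja5* gave no ratio at E15.5 (1 against 0 UMIs), nor with suffix 1 or 3 alone, and the *Gjc1* comparison has no other meningeal cluster to compare with. No paired analysis was possible because E15.5 has 1 library; at E17.5 each suffix was taken alone instead. Depth limits *Gja5* throughout and *Gjb2* and *Gjb6* in the 64 MG4 cells of E15.5.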
